A study of Mus musculus with 8 samples.

Results

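The genes of vesicle trafficking described here are those of the MG-U74Av2 chip whose symbol is Rab, Arf or Arl with a number, or starts with Trappc, Tbc1d, Vps or Snx, together with Tom1. The rule found 129 probe sets of 100 genes among 12488 probe sets. Each gene was represented by its brightest probe set, Tbc1d15 by every probe set it has, and 94 probe sets of 93 genes reached a group mean above 50 and were tested. The whole test covered 10078 probe sets, which represent 7163 named genes where they have 1 symbol. The lens RNA came from 10-day-old mice of 4 groups with 2 arrays each, WT and α3Cx46 KO lenses on the 129SvJae background and WT and α3Cx46 KO lenses on the C57BL/6J background. 129SvJae and C57BL/6J are inbred strains, the KO mice carry a targeted disruption of Gja3 (the gene of α3Cx46, a gap junction protein of lens fiber cells), both sexes were used, and no group was treated. Each array received RNA of a pool of lenses, with epithelial and fiber cells together. The labels number 2 samples per group, but the study speaks of a cDNA preparation for each genotype and strain, so the arrays of a group may share a pool. The p-values therefore reflect how far these samples lie apart, a spread that may be only technical.

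Membrane vesicles carry cargo between the endoplasmic reticulum, the Golgi complex, endosomes, lysosomes and the cell surface. Rab, Arf and Arl proteins are small GTPases that mark a membrane when bound to GTP, TRAPP complexes (Trappc genes) load Rabs with GTP, and most proteins with a TBC domain (Tbc1d genes) end the Rab signal by speeding GTP hydrolysis. Vps proteins and sorting nexins (Snx) sort and recycle endosomal cargo, and Tom1 binds ubiquitin and clathrin at endosomes. In the lens, maturing fiber cells clear their organelles while they enlarge their plasma membrane.

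The labels and the tissue were checked first. Gja3 had signals of 1100, 3381, 1968 and 3274 on the WT arrays and of 472, 445, 448 and 519 on the KO arrays, with no overlap. Summed signals of 6 fiber cell markers were 130378 to 226383 and those of 7 epithelial markers 13961 to 19533 per array, with overlap between the strains in both. Of the epithelial markers Npnt, which encodes nephronectin, did not overlap, at 273 to 403 on the 129SvJae and 575 to 664 on the C57BL/6J arrays (log2 ratio 0.85, SE 0.21, adjusted p = 0.163). None of the marker lists of photoreceptors, pigmented cells, blood, leukocytes, endothelium or muscle had a gene called between the strains, and their sums overlapped, except that 5 dim muscle markers summed to 334 to 380 on the 129SvJae arrays and to 385 to 489 on the C57BL/6J arrays. Their part in the results below was not tested. In such pooled tissue, fewer cells of a type and less RNA per cell cannot be told apart. Median signals were 85.1 to 115 per array, and the 4 arrays numbered 1 shared a scan session.

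All role groups were represented above the level of 50. They held 29 of 33 Rab GTPases, 9 of 9 Arf and Arl GTPases, 7 of 7 TRAPP subunits, 7 of 8 Tbc1d genes, 19 of 20 Vps genes, 13 of 14 sorting nexins, Tom1, and 8 of 8 genes that the symbol rule takes in because they are named after a Rab, Arf or Arl (binding partners such as Arl2bp and Rab11fip5, and the opposite-strand transcripts Rab10os and Rab26os). Vps72, named like the sorting genes, encodes a chromatin protein. Signals well above the level on all 8 arrays were seen for Rab11a, a Rab of recycling endosomes (1731 to 2485), Arf1, which recruits Golgi coats (3950 to 7165), Snx3, which binds an endosomal lipid (6170 to 8464), and Vps35, the core of the retromer sorting complex (1484 to 1910). The 7 genes below the level were Rab3d, Rab5b, Rab31, Rab35, Snx21, Tbc1d24 and Vps37b. Rab31 came closest with a highest group mean of 48.6, while Vps13c passed with 50.3 and Rab8b with 50.7. Of the 94 probe sets, 84 passed in all 4 groups and 10 in fewer, such as Rab33a and Vps37a, and ratios of the latter compare signals of which some were near background.

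The strains were compared first, to find genes that differ between a background with severe and a background with mild cataract when Gja3 is lost. Averaged over genotypes (4 C57BL/6J arrays against 4 129SvJae arrays), 3 of the 94 probe sets were called in limma (p under 0.05 after Benjamini-Hochberg adjustment), all 3 higher in C57BL/6J lenses, against 0.367% of all probe sets tested and 0.258% called higher. They were Trappc5, Tom1 and the dimmer probe set of Tbc1d15. The study had listed all 3 as strain differences from these same arrays, so the calls are not independent of that choice. Over all 94 the log2 ratio of C57BL/6J over 129SvJae was positive for 52 and negative for 42, with a median of 0.03, while over all probe sets tested 50.9% were positive and the median was 0.01. Among the members were 6 ratios beyond 2-fold in either direction, where 8.01% of all tested lay.

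**Figure D1:**
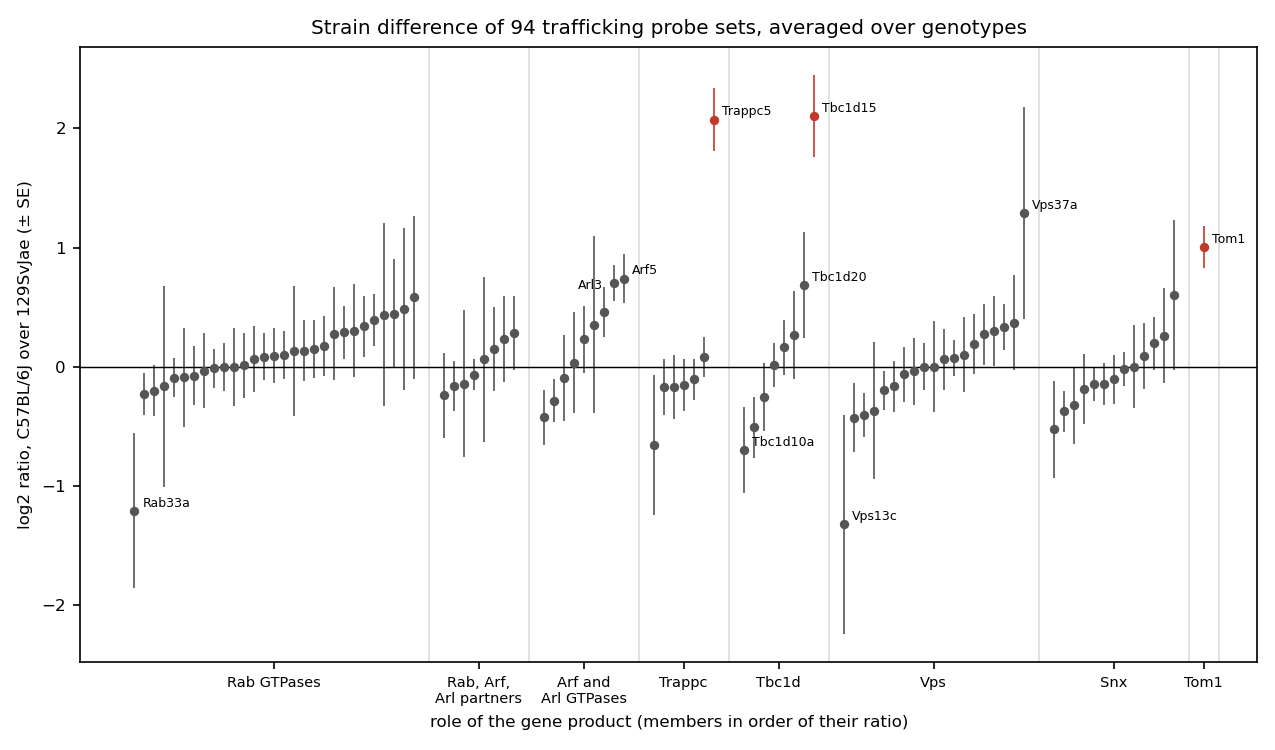
Log2 ratio of C57BL/6J over 129SvJae signals, averaged over genotypes, for the 94 trafficking probe sets in order of their ratio within each role group (points, fitted ratio; bars, SE; red, adjusted p under 0.05). Trappc5 at 2.07, Tbc1d15 (dimmer probe set) at 2.11 and Tom1 at 1.0 are the 3 called. The other Trappc genes lie at -0.66 to 0.09 and the other Tbc1d genes at -0.69 to 0.69, while Tom1 is alone in its group.

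Trappc5 encodes a subunit shared by TRAPP complexes, which act as exchange factors of Rab proteins on the way to and through the Golgi complex. In 129SvJae lenses its signals were 75.7 and 138 (WT) and 170 and 185 (KO), and in C57BL/6J lenses they were 545 and 568 (WT) and 561 and 595 (KO). Every C57BL/6J array lay far above every 129SvJae array, and the replicates of a group lay closer to each other than to the other strain. Averaged over genotypes, its log2 ratio was 2.07 (SE 0.26, adjusted p = 0.00258), a 4.21-fold difference. The other 6 TRAPP subunits on the chip had log2 ratios of -0.66 to 0.09 and a lowest adjusted p of 0.927. Among them Trappc10, a subunit of the TRAPPII complex, had the ratio farthest from 0 at -0.66 (SE 0.59), and Trappc1, a core subunit, had -0.17 (SE 0.23). Without a trend in the variance prior, none of the 94 probe sets was called, and Trappc5 had an adjusted p of 0.169. By the methods' t-test, run here on log2 signals, with adjustment it had 0.103.

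Tbc1d15 encodes a GTPase-activating protein with a TBC domain that acts on Rab7, the Rab of late endosomes. The chip has a dimmer and a brighter probe set for it. On 129SvJae arrays the dimmer gave 95.1 and 62.8 (WT) and 67.6 and 66.3 (KO), and on C57BL/6J arrays 322 and 231 (WT) and 296 and 418 (KO). All 4 C57BL/6J arrays were above all 4 129SvJae arrays, with a log2 ratio of 2.11 (SE 0.34, adjusted p = 0.0129). The brighter gave 388 and 320, 306 and 367, 460 and 320, and 423 and 353 in the same order of groups. Here the strains overlapped, and the log2 ratio was 0.16 (SE 0.23, adjusted p = 0.953). The log2 signal of the dimmer probe set minus that of the brighter was -2.26 ± 0.19 on the 4 129SvJae arrays and -0.31 ± 0.37 on the 4 C57BL/6J arrays (mean ± SD). The strain effect on this difference was 1.94. The study had listed Tbc1d15 from these same arrays, so no p-value is given for this difference. On these arrays the probe sets of this gene gave different strain ratios. The mean log2 signal of all probe sets of Tbc1d15 had a ratio of 1.14 with an adjusted p of 0.145. The call of the dimmer was made in only 3 of the 8 fits that left out 1 array, and its adjusted p without C57BL/6J KO replicate 2 was 0.149.

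The other 6 Tbc1d genes had log2 ratios of -0.69 to 0.69, 3 of them positive and 3 negative, with a lowest adjusted p of 0.766. Tbc1d23, a protein of the trans-Golgi network, was the only member with all C57BL/6J arrays (187 to 271) below all 129SvJae arrays (281 to 388). Its log2 ratio was -0.51 (SE 0.26, adjusted p = 0.766). Arrays that do not overlap in this direction made up 2.62% of all probe sets tested.

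Tom1, the endosomal adaptor, gave 1254 and 1825 (WT) and 1713 and 2032 (KO) on 129SvJae arrays, and 2749 and 3823 (WT) and 3161 and 3888 (KO) on C57BL/6J arrays. The strains did not overlap, although the spread between replicates was wide. The log2 ratio was 1.0 (SE 0.17, adjusted p = 0.0209), a 2.01-fold difference. In all 4 groups replicate 2, of a later scan session, was above replicate 1, as it was for Trappc5. With arrays centred on the median the ratio was 0.95 (adjusted p = 0.400), and the call was made in 2 of the 8 fits that left out 1 array.

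**Figure D2:**
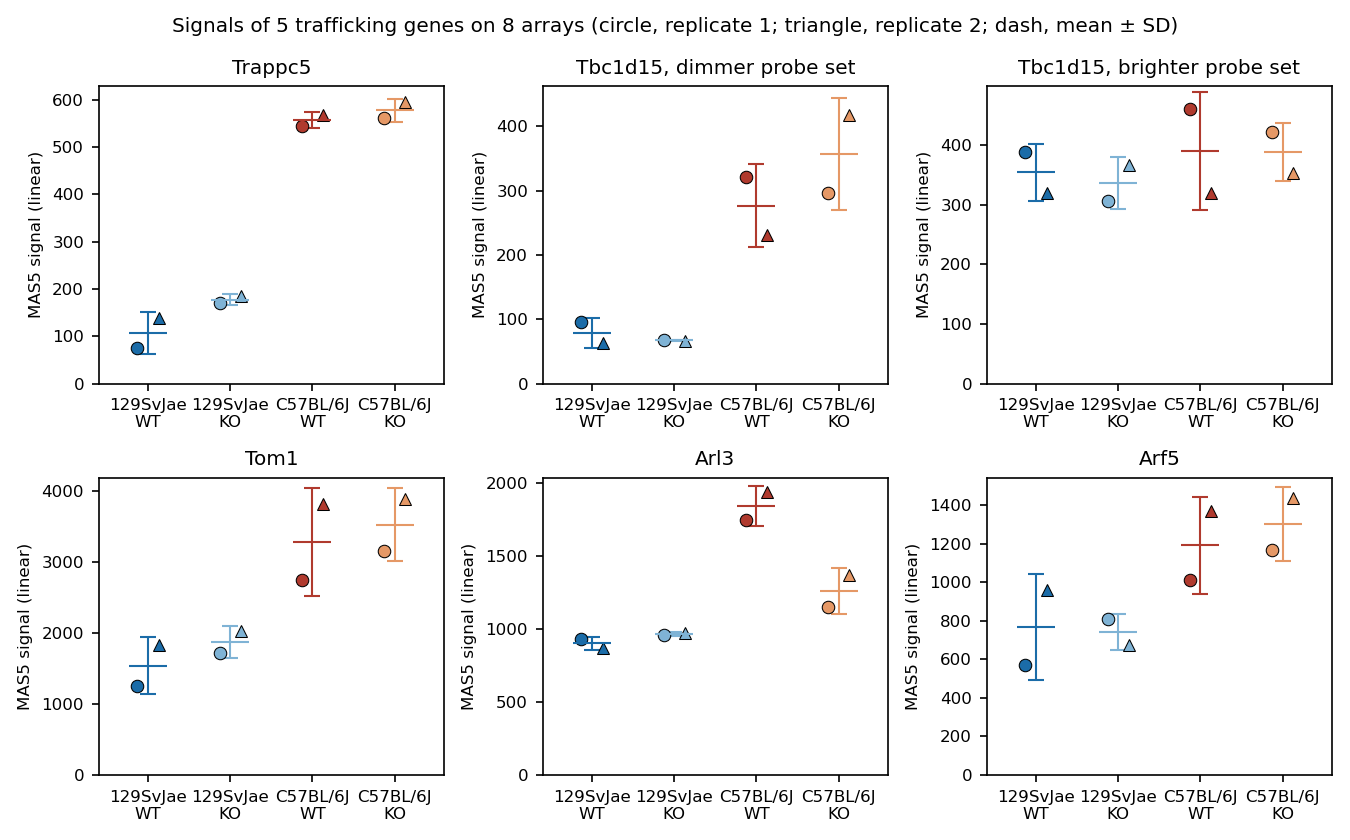
MAS5 signals (linear scale, y axis from 0) of Trappc5, both probe sets of Tbc1d15, Tom1, Arl3 and Arf5 on the 8 arrays, by group (circles, replicate 1; triangles, replicate 2; dash and bar, mean and SD of 2 arrays). The C57BL/6J arrays sit above the 129SvJae arrays in every panel except that of the brighter Tbc1d15 probe set, where 320 to 460 overlaps 306 to 388.

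The promoters of the 3 genes called are shown because these genes were higher in the same strain. Each stretch runs from 250 bases before to 50 bases after the transcription start given by RefSeq for GRCm38.p6, on the strand of the gene, and capitals mark CACGTG, the E-box to which many basic helix-loop-helix factors bind. Trappc5 lies at chr8:3676227-3676526 (+), Tom1 at chr8:75033436-75033735 (+) and Tbc1d15 at chr10:115251444-115251743 (-).
Trappc5: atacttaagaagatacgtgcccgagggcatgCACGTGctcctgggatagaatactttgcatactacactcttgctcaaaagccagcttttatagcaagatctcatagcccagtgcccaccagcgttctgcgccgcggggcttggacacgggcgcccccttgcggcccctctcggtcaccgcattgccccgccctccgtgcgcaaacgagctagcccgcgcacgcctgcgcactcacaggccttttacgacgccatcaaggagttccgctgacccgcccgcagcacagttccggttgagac
Tom1: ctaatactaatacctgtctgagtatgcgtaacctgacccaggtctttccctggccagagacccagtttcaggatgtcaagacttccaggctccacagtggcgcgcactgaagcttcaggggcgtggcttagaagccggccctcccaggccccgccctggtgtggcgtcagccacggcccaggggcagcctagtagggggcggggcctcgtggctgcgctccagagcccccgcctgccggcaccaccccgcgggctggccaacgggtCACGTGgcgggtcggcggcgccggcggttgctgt
Tbc1d15: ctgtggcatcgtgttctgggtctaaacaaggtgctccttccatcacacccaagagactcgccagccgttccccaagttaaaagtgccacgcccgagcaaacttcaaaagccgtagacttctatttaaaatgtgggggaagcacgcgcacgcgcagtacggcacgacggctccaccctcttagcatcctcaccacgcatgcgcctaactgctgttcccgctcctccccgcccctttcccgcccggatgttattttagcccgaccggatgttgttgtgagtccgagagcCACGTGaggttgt
CACGTG, which reads the same on both strands, occurred once in each, starting at -219 in Trappc5, +17 in Tom1 and +38 in Tbc1d15 relative to the start. The motif was chosen after these 3 stretches had been read. It was present in 19 of the 78 member genes with a promoter entry (24.4%), in 11.9% of the 5740 genes with a tested probe set and an entry, and in 7.15% of all 32851 promoters of this length. The member genes with it include Arl3, Arf5, Snx5, Rab5a, Rab24, Tbc1d14, Tbc1d20, Vps16 and Vps26a, none of which was called. These sequences are those of the reference genome, and the arrays did not measure what binds there.

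Beyond the genes called, 8 of the 94 probe sets had an unadjusted p under 0.05 for the averaged strain difference (6.97% of all tested). Besides Trappc5, Tbc1d15 and Tom1 these were Arl3, Arf5, Arf4, Vps29 and Snx6. In 6 members all C57BL/6J arrays lay above all 129SvJae arrays, against 2.95% of all probe sets tested. They were the 3 genes called, Arl3, Arf5 and Snx5.

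Among the Arf and Arl GTPases, 6 ratios were positive and 3 negative, with a median of 0.23. Arl3, a GTPase that releases lipidated cargo into cilia, gave 936 and 872 (WT) and 958 and 976 (KO) on 129SvJae arrays, and 1747 and 1944 (WT) and 1150 and 1372 (KO) on C57BL/6J arrays. The C57BL/6J arrays were all higher, and those of WT lenses most of all. The averaged log2 ratio was 0.70 (SE 0.15) with an adjusted p of 0.0983, and of 0.0452 with the replicate number as a block. Arf5, a Golgi Arf, gave 571 and 961, 807 and 675, 1014 and 1369, and 1167 and 1438 in the same order. The strains again did not overlap, but the log2 ratio of 0.74 (SE 0.20) had an adjusted p of 0.228. Arf4, which acts in Golgi export, had 0.46 (SE 0.21, adjusted p = 0.709), and its 129SvJae KO replicate 2, at 1105, was higher than every C57BL/6J array.

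The 29 Rab GTPases held no called member, and the lowest adjusted p was 0.801. Their log2 ratios ran from -1.21 to 0.58, with 18 positive and 11 negative and a median of 0.10. Rab33a, which binds the autophagy protein Atg16l1, had -1.21 (SE 0.65), with signals of 31.3 to 111 on the 129SvJae and of 15.4 to 42.9 on the C57BL/6J arrays, most of them under 50. Rab1a, the Rab of traffic from the endoplasmic reticulum to the Golgi complex, had 0.39 (SE 0.22), and Rab10, a Rab of exocytosis and recycling, had 0.34 (SE 0.25). Of the genes named after a GTPase, 4 were positive and 4 negative, from -0.24 for Arl14ep, a partner of an Arl GTPase, to 0.28 for the transcript Rab10os, and Rab5if had -0.16. These ratios did not pass the test in either direction.

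The 19 Vps genes had log2 ratios of -1.32 to 1.29 with a median of 0.00, 11 positive and 8 negative. The highest ratio was that of the dim Vps37a, whose 129SvJae KO signals were near background. Vps29, a retromer subunit, gave 1353, 1134, 909 and 1374 in 129SvJae and 847, 1072, 815 and 840 in C57BL/6J lenses, with overlap and a log2 ratio of -0.41 (SE 0.18, adjusted p = 0.701). Vps53, of a complex that tethers vesicles to the Golgi complex, had 0.34 (SE 0.19), and Vps4b, the ATPase that recycles ESCRT-III, had -0.43 (SE 0.29). The 13 sorting nexins had -0.52 to 0.60 with a median of -0.10. Snx6, a partner of retromer, had -0.37 (SE 0.17, adjusted p = 0.715), Snx14, which also has an RGS domain, had -0.52 (SE 0.41) and Snx3 had -0.15 (SE 0.14). None of the genes of these groups was called in this comparison.

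Several probe sets for a gene gave a check on these ratios. Of 24 genes found by the symbol rule with several probe sets, 21 had several that were tested. In 16 of these 21 the signs of the averaged strain ratio differed, while in 5 they agreed. Some of the second probe sets were dim, with those of Rab2a and Snx12 under 50 on 7 of the 8 arrays. The share of differing signs over all genes of the chip is not given here. None of the 23 tested probe sets outside the members was called in limma, and 2 had an unadjusted p under 0.05. A second probe set of Tbc1d10a, a protein with the TBC domain, had 1.79 (SE 0.59, adjusted p = 0.409), where its brightest had -0.69 (SE 0.36). A second probe set of Rab10 had -0.86 (SE 0.38, adjusted p = 0.691), against 0.34 for the brightest. Vps35 had -0.999 (SE 0.75) on its dim second probe set and 0.08 (SE 0.15) on the brightest.

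**Figure D3:**
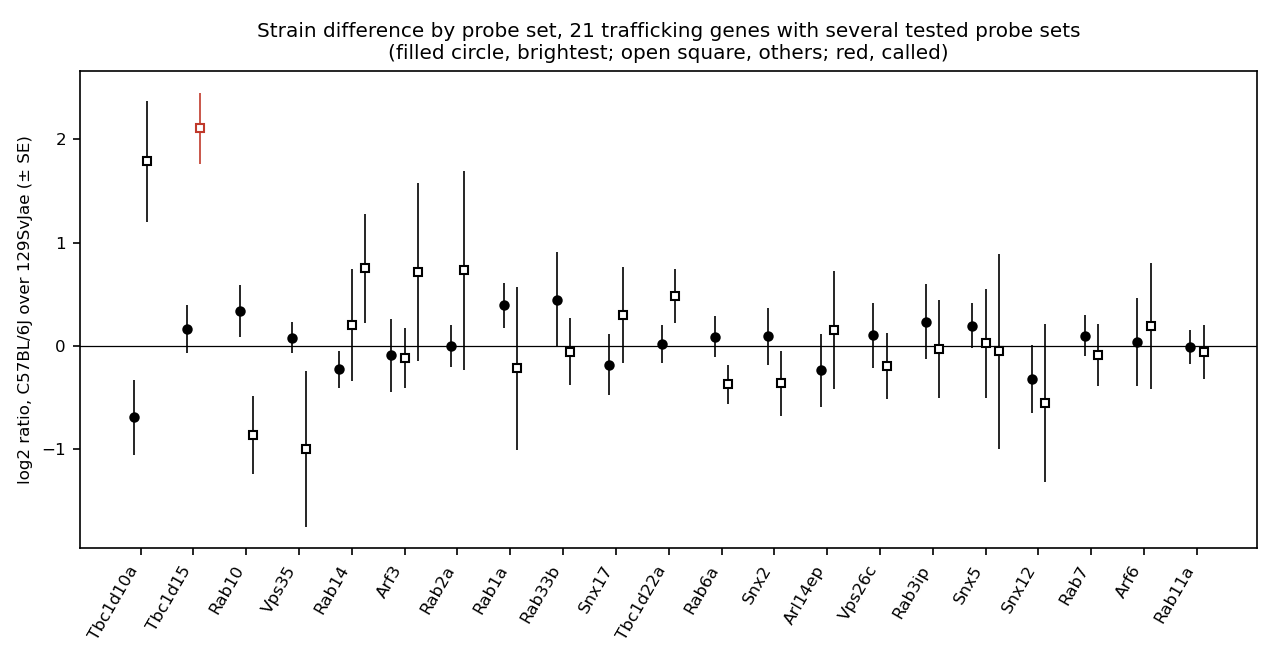
Averaged log2 ratio of C57BL/6J over 129SvJae (± SE) for each tested probe set of the 21 trafficking genes with several (filled circles, brightest probe set; open squares, others; red, adjusted p under 0.05), ordered by the range within a gene. The widest ranges are 2.48 for Tbc1d10a and 1.94 for Tbc1d15, and most genes have ratios on both sides of 0 with bars that overlap.

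The strain difference was then taken within each genotype, with 2 arrays against 2. In WT lenses 9 members had an unadjusted p under 0.05 (6.47% of all tested) and 1 was called (0.0695% of all tested), Trappc5, with a log2 ratio of 2.44 (SE 0.37, adjusted p = 0.0300). The dimmer probe set of Tbc1d15 had 1.82 (SE 0.48, adjusted p = 0.393), its brighter 0.12 (SE 0.33), and Tom1 had 1.10 (SE 0.25, adjusted p = 0.226). With the replicate number as a block Tom1 was called too (adjusted p = 0.0318). The call of Trappc5 was lost when 129SvJae WT replicate 1 was left out (log2 ratio 2.01, adjusted p = 0.138), and in 5 of the other 7 fits with 1 array left out. In KO lenses, limma called 0 members (0.0893% of all tested) with 5 at an unadjusted p under 0.05 (3.73% of all tested), and the methods' t-test with adjustment also called 0 (0% of all tested) with 8 at an unadjusted p under 0.05 (5% of all tested). The log2 ratios there were 1.70 (SE 0.37, adjusted p = 0.239) for Trappc5, 2.39 (SE 0.48, adjusted p = 0.180) for the dimmer probe set of Tbc1d15, 0.20 (SE 0.33) for its brighter and 0.91 (SE 0.25, adjusted p = 0.585) for Tom1. The direction in the 3 genes was the same in WT and KO lenses. They had been called on the average of both and listed by the study from these same arrays, so this agreement is no separate support.

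The criteria of the methods were a level above 50, a fold of at least 1.8 and an unadjusted p of at most 0.01. By these, a t-test on log2 signals counted 1 member in WT lenses, Arl3 (0.506% of all tested), and 1 in KO lenses, Trappc5 (0.456% of all tested). The methods do not state the scale of their t statistic. The study lists Trappc5, Tbc1d15 and Tom1 for WT lenses and does not list Arl3, so the t-test used here did not reproduce its list. For the average over genotypes this t-test counted 3 (1.28% of all tested), the same 3 genes as limma with adjustment. With limma's p in place of the t-test's, the criteria counted Arl3, Tbc1d15, Tom1 and Trappc5 in WT lenses, where 1.46% of all tested met them. In KO lenses they counted Tbc1d15, Tom1 and Trappc5, with 0.804% of all tested.

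The difference between the strain ratios of KO and WT lenses was tested as an interaction. Limma called 0 members, as it called 0 of all probe sets tested (0% of 10078), and 2 had an unadjusted p under 0.05 (2.11% of all tested). For Trappc5 the interaction was -0.74 (SE 0.53), for the dimmer probe set of Tbc1d15 0.58 (SE 0.68) and for Tom1 -0.19 (SE 0.35), each with an adjusted p of 0.9998. Rab3a, the Rab of regulated secretion at synapses, gave 242 and 178 (WT) and 480 and 261 (KO) on 129SvJae arrays, and 336 and 315 (WT) and 225 and 234 (KO) on C57BL/6J arrays. It was higher in C57BL/6J among WT and lower among KO lenses, with an interaction of -1.27 (SE 0.55, adjusted p = 0.9998). Rab34, a Rab of lysosome positioning and ciliogenesis, had -1.72 (SE 0.78), and Arl3 had -0.65 (SE 0.31). Rab3a and Rab34 were the 2 with an unadjusted p under 0.05, and neither passed after adjustment over all probe sets.

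**Figure D4:**
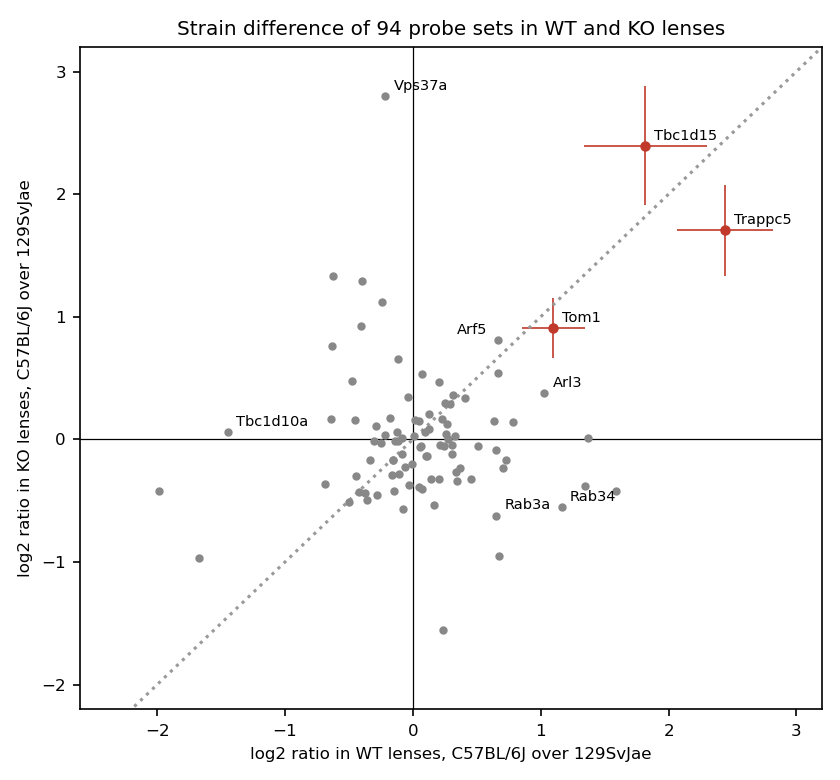
Log2 ratio of C57BL/6J over 129SvJae in WT lenses (x axis) against that in KO lenses (y axis) for the 94 trafficking probe sets, with SE bars for the 3 called on average (red) and equal ratios on the dotted line. Trappc5 lies at 2.44 and 1.70, Tbc1d15 at 1.82 and 2.39 and Tom1 at 1.10 and 0.91, and no member has an interaction that passed the test.

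The loss of Gja3 was the other comparison, KO over WT, made to see whether disrupting these gap junctions alters transcript levels. Averaged over strains, limma called 0 of the 94 members (0.0198% of all tested), with 2 at an unadjusted p under 0.05 (3.05% of all tested), and the methods' t-test with adjustment called 0 (0% of all tested) with 2 at an unadjusted p under 0.05 (3.68% of all tested). The log2 ratio of KO over WT was positive for 55 members and negative for 39, with a median of 0.05 (-0.02 over all probe sets tested). Among the genes called between the strains it was 0.42 (SE 0.26) for Trappc5, 0.08 (SE 0.34) for the dimmer probe set of Tbc1d15 and 0.21 (SE 0.17) for Tom1, each with an adjusted p of 0.998.

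Vps37a, a subunit of the ESCRT-I complex that sorts ubiquitinated cargo, had the smallest p. It gave 120 and 28.2 (WT) and 7.49 and 2.20 (KO) on 129SvJae arrays, and 93.4 and 26.8 (WT) and 40.7 and 19.6 (KO) on C57BL/6J arrays. The values were mostly under 50 and WT and KO overlapped, and the log2 ratio was -2.33 (SE 0.89, adjusted p = 0.998). Rab34 gave 48.0 and 64.7 (WT) and 231 and 168 (KO) on 129SvJae arrays, but 150 and 103 (WT) and 106 and 170 (KO) on C57BL/6J arrays. It was higher in KO among 129SvJae lenses and overlapped among C57BL/6J lenses, with an averaged log2 ratio of 0.96 (SE 0.39). Vps37c, another ESCRT-I subunit, had -0.61 (SE 0.30). No member had all KO arrays above or below all WT arrays, which 0.972% and 1.22% of all probe sets tested had.

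Within 129SvJae lenses limma called 0 members for the KO effect (0% of all tested), with 4 at an unadjusted p under 0.05 (3.12% of all tested), and within C57BL/6J lenses 0 (0.00992% of all tested), with 2 (2.31% of all tested). The methods' t-test with adjustment called 0 in both (0% of all tested). At an unadjusted p under 0.05 it counted 4 members in 129SvJae (3.77% of all tested) and 8 in C57BL/6J lenses (3.37% of all tested). The criteria of the methods with limma's p counted 2 members in 129SvJae lenses, Rab34 and Vps37a (0.298% of all tested). They counted 0 in C57BL/6J lenses, and with the t-test 0 in both strains. Vps37a passed the level only in WT lenses, and its 129SvJae KO signals of 7.49 and 2.20 were near background. Its ratio there is therefore not a reliable size of a KO effect. The count of 2 of the 94 members lies above the share of 0.298%, but it includes this dim gene. Whether it exceeds that share by more than chance was not tested. The median log2 ratio of the members was 0.10 in 129SvJae and 0.01 in C57BL/6J lenses. Centring arrays on the median moved the median over all probe sets from -0.05 to 0.09 in 129SvJae lenses, and that of the members from 0.10 to 0.25.

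**Figure D5:**
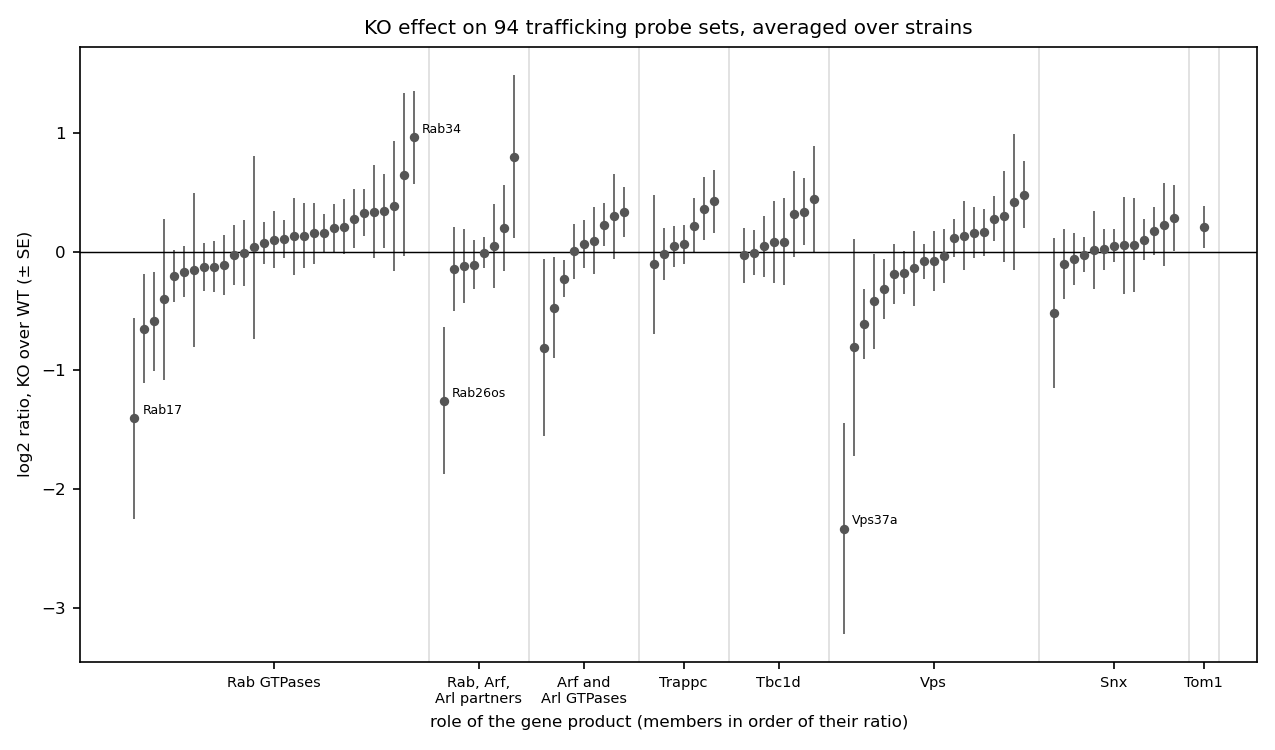
Log2 ratio of KO over WT signals, averaged over strains, for the 94 trafficking probe sets in order of their ratio within each role group (points, fitted ratio; bars, SE). No member passed the test, and the point farthest from 0 is the dim Vps37a at -2.33.

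The members also differed between the replicate numbers. Replicate 2 was above replicate 1 in all 4 groups for 24 of the 94 members (25.5%), against 9.53% of all probe sets tested, and in none of the groups for 7 (14.5% of all tested). The arrays numbered 2 had lower medians (85.1 to 95.0) than those numbered 1 (102 to 115) at the same trimmed mean. Genes were represented by their brightest probe set, so the share over all probe sets is not matched for signal level. The part of signal level was not tested. The 24 include Trappc5, Tom1, Arf4, Rab33a, Snx6, Snx1 and Vps53. Replicate 1 of every group came from session 1, and replicate 2 from later sessions with another version of the fluidics script. Session 2 held only 129SvJae WT replicate 2, and session 3 held replicate 2 of the other groups. Script and replicate number cannot be told apart, and session differs from them only in splitting the arrays numbered 2. A fluidics error is on record for C57BL/6J WT replicate 1. Without that array the averaged strain ratio of the dimmer Tbc1d15 probe set had an adjusted p of 0.0781, that of Tom1 was still called, and the ratio of Trappc5 in WT lenses had an adjusted p of 0.215. Each group holds both numbers. With the session as a block the averaged log2 ratio was 2.27 for Trappc5, 1.96 for the dimmer Tbc1d15 probe set and 1.05 for Tom1. As 129SvJae WT replicate 2 was alone in its session, that fit in effect left this array out. The session block is therefore no balanced check.

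Other genes of the pathway, outside the symbol rule, were taken from lists of SNAREs, SNARE regulators, coats, clathrin and adaptors, ESCRT subunits, exocyst subunits and regulators of the Rab and Arf cycles. Of 196 listed genes, 121 were tested and 0 were called by limma for the averaged strain difference (0.367% of all probe sets tested), with 15 at an unadjusted p under 0.05 (6.97% of all tested), 54 positive and 67 negative ratios and a median of -0.04. The medians of the 8 lists ran from -0.16 for clathrin and its adaptors to 0.12 for the exocyst. Of the 15 genes, 8 were among the 27 tested of clathrin and its adaptors, a list with 10 positive and 17 negative ratios. Git1, a GTPase-activating protein of Arfs, had the lowest adjusted p of all, with signals of 64.6 to 148 in 129SvJae and of 182 to 313 in C57BL/6J lenses and a log2 ratio of 1.27 (SE 0.35, adjusted p = 0.229). Tollip, which binds Tom1 on endosomes, gave 57.2 to 121 and 145 to 225, with a ratio of 1.16 (SE 0.37, adjusted p = 0.373). Stxbp3, which binds syntaxins at the plasma membrane, gave 482 to 627 and 254 to 436, with a ratio of -0.76 (SE 0.24, adjusted p = 0.367). In these 3 genes the strains did not overlap, and none passed the test over all probe sets.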

How the data were processed

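The authors hybridized biotin-labeled cRNA of pooled lenses to MG-U74Av2 chips, 1 sample per chip, and deposited an intensity for every probe set, the MAS5 signal on a linear scale, which they had scaled to a mean of 250. No detection calls or probe-level data were used here. Arrays have no read depth, so their number limits the precision. In R 4.3.3 signals were rescaled to a trimmed mean of 250 on every array (2% off each end), the 1 value at or under 0 was set to 1, and 66 control probe sets and those without a group mean above 50 (the level in the methods) were left out. The log2 signals entered 1 fit in limma 3.58.1 with 4 group means and a trend in the variance prior (4 residual degrees of freedom), with Benjamini-Hochberg adjustment over all 10078 probe sets. That fit had no block for the replicate number, since the methods name none, and the number as a block was an alternative. The fit was tested on simulated data.

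Groups and replicate numbers come from the labels. The numbers pair the arrays, since same-numbered arrays deviated together from their group means (correlation over probe sets 0.129 to 0.206 for the 6 pairs of groups). In the run records number 1 goes with session 1 and number 2 with the later sessions. Genes were named from probe sets with 1 symbol in the platform annotation, with symbols brought up to date from a GRCm38.p6 gene table, and 1 probe set with several symbols (Vps25 among them) was left out. An Arl gene that the study lists, Arl8b (formerly Arl10c), matched no probe set with 1 symbol and was not analysed here. The members, the gene lists and the alternatives were chosen with earlier results of these data known. Genes named are Trappc5, Tbc1d15 and Tom1, members called, in each role group those with the smallest p for the averaged strain difference or the highest signal, those with the smallest p for the KO effect and the interaction, and those nearest the level of 50. Snx5, second probe sets, the genes listed by motif or scan session and, among the first of their lists, Git1, Tollip and Stxbp3 were picked after their values were seen. Promoters are from RefSeq. The alternatives were other scalings, a floor of 50, an offset of 16, a level of 100 or none, other variance models, blocks, array weights, only the groups compared, the methods' t-test, other probe set choices and each array left out.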

Additional observations from a re-analysis of the deposited data

Results flagged for a closer look

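In 4 members the C57BL/6J arrays lay on opposite sides of the 129SvJae arrays in WT and in KO lenses, with no overlap in either genotype. The strain difference in KO lenses minus that in WT lenses (log2) was -1.27 for Rab3a, -0.77 for Vps16, a core subunit of the HOPS and CORVET tethers, -0.53 for Vps26a, a retromer subunit, and -0.23 for Snx1, a sorting nexin that works with retromer. In all 4 the C57BL/6J arrays were higher among WT lenses and lower among KO lenses. The interaction tested in limma did not pass for any of them (adjusted p = 0.9998), and the pattern was found in 4.26% of the members and in 3.11% of all probe sets tested.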

How the results depend on the processing

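For the strain difference averaged over genotypes, the 3 called members became 0 without a variance trend and 1 (Tbc1d15) by the methods' t-test, and ran from 1 to 3 with each array left out. Leaving out any of the KO arrays kept only Trappc5. In WT lenses the 1 called member became 0 under quantile normalization, with arrays centred on the median, with no level filter, without a variance trend, with only the groups compared and by the t-test, 2 (Trappc5 and Tom1) with the replicate block or the scan session as a block, and 0 to 1 with each array left out. The counts of 0 for the other comparisons did not change under any alternative run. Trappc5 was called on average in all 8 fits that left out an array, with adjusted p from 0.00146 to 0.0254. The replicate block changed no other call than those of Arl3 on average and Tom1 in WT lenses. Of the values named, 46 in all, no called ratio changed sign and 6 uncalled ones did. With the mean of all probe sets of a gene the averaged strain ratio was -0.26 for Rab10 and 0.55 for Tbc1d10a. The KO effect on the dimmer Tbc1d15 probe set was -0.069 when scan session was a block and ran from -0.069 to 0.23 with an array left out. With an array left out, the strain ratio of the brighter Tbc1d15 probe set in WT lenses ran from -0.14 to 0.38, the interaction of Tom1 from -0.46 to 0.081 and the averaged strain ratio of Arl14ep from -0.48 to 0.0076. The causes were not tested. The level of 50 near background and 2 arrays a group limit all comparisons, and a difference that missed the threshold is not shown to be absent.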
